A study of Mus musculus with 6 samples.

Results

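The E2F transcription factors are encoded in the mouse by 8 genes, E2f1 to E2f8, and all 8 were measured among the 18182 genes represented on the arrays. They were chosen by gene symbol alone, through 16 of the 44994 probe sets, and the brightest probe set on average over the 6 arrays stands for each gene. The arrays compared cells sorted for a nuclear GFP that the control elements of Pax7 drive (Pax7 is a paired-box gene of muscle progenitors), from limbs of Tg:Pax7-nGFP mice on a C57BL/6:DBA2 background. There were 3 arrays of E17.5 cells, from the fetal phase of muscle formation, and 3 arrays of E12.5 cells, from the embryonic phase, each labelled as biological replicates A, B and C. All 6 samples carried the transgene, none was treated, and whether an array stands for 1 embryo or for a pool is not given in the sources used here. Values are log2 signals, so a difference of 1 is a change of 2-fold, and differences are taken as E17.5 minus E12.5 and given with their standard error (SE) and the adjusted p of limma over all genes. A gene is called higher or lower where that adjusted p is under 0.05.

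E2F proteins bind a GC-rich element in the promoters of genes needed for entry into S phase, DNA replication and cell division. E2F1, E2F2 and E2F3 are known as activators, and the retinoblastoma protein (Rb1) holds them inactive until cyclin-dependent kinases phosphorylate it in late G1. E2F4 and E2F5 act mostly as repressors with the pocket proteins Rbl1 and Rbl2 in resting cells. E2F6 represses without a pocket protein, through a Polycomb complex, and the atypical members E2F7 and E2F8 repress without a DP partner. In muscle precursors, silencing of E2F targets by Rb family proteins accompanies exit from the cell cycle at differentiation.

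Several E2F genes are themselves known targets of E2F, so the start regions of the members were searched for the element. The search took windows of 250 bases before to 50 bases after each gene start from RefSeq (GRCm38.p6), and 6 of the 8 members had such a window. Of the 4 sequences searched on both strands (TTTCCCGC, TTTGGCGC, TTTCGCGC and TTTGCCGC), 1 or more stood in 3 of those 6 members, against 704 of all 27025 genes with a window (2.6%). The stretches below show the 3 matches in capitals, in E2f2, E2f3 and E2f7, and for comparison the 60 bases before the start of E2f1 and E2f6, which hold no match. No match overlapped another. The window of E2f8 held no match either. Only these 4 exact sequences were searched, so a window without a match may still hold another form of the element. The match of E2f2 starts 40 bases into the transcribed part, that of E2f3 lies 11 bases before the start and that of E2f7 198 bases before it, the last 2 on the strand opposite to the gene. E2f2 and E2f3 each have a second window, without a match.
E2f2, chr4:136172294-136172323, plus strand: cgaatttggcggcatatagTTTGGCGCtaa
E2f3, chr13:29986064-29986123, minus strand: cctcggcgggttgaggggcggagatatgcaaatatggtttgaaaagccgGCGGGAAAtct
E2f7, chr10:110745215-110745274, plus strand: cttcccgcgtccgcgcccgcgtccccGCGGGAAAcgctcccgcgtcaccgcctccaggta
E2f1, chr2:154569427-154569486, minus strand: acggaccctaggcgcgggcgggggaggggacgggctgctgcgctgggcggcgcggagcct
E2f6, chr12:16810905-16810964, plus strand: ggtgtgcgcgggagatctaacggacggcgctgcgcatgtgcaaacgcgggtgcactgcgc

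The family was divided between the ages. The activator genes E2f1 and E2f2 were higher at E17.5, the repressor genes E2f5 and E2f6 were lower, and E2f3, E2f4, E2f7 and E2f8 were not called. Thus 2 of 8 members were called higher, where 8.21% of all genes were, and 2 of 8 were called lower, where 8.73% were. Over all genes 16.9% were called in either direction, and 26.4% of the 8758 genes with a mean signal of at least 6, a range that holds 7 of the 8 members. With so few members these counts are a description and say nothing particular about the family. The differences did not follow the roles of the members throughout. The activator gene E2f3 differed by -0.19 and the repressor genes E2f7 and E2f8 by 0.37 and 0.72, though none of these was called. In 6 of the 8 members all arrays of one age lay above all arrays of the other, as in 31.4% of all genes.

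E17.5 replicates A and B were unusually alike. The SD of their difference over those 8758 genes was 0.152, against 0.412 to 0.551 in the 5 other pairs of arrays of one age, and in the E2F genes they differed by 0 to 0.26. They may not be independent samples, so the calls are also given with their values averaged and counted as 1 sample (3 arrays against 2). In that fit E2f1 and E2f2 were called higher, with 5.62% of all genes, and no member was called lower, with 4.54% of all genes lower. The labels describe the replicates as biological and give no more about their source.

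**Figure D1:**
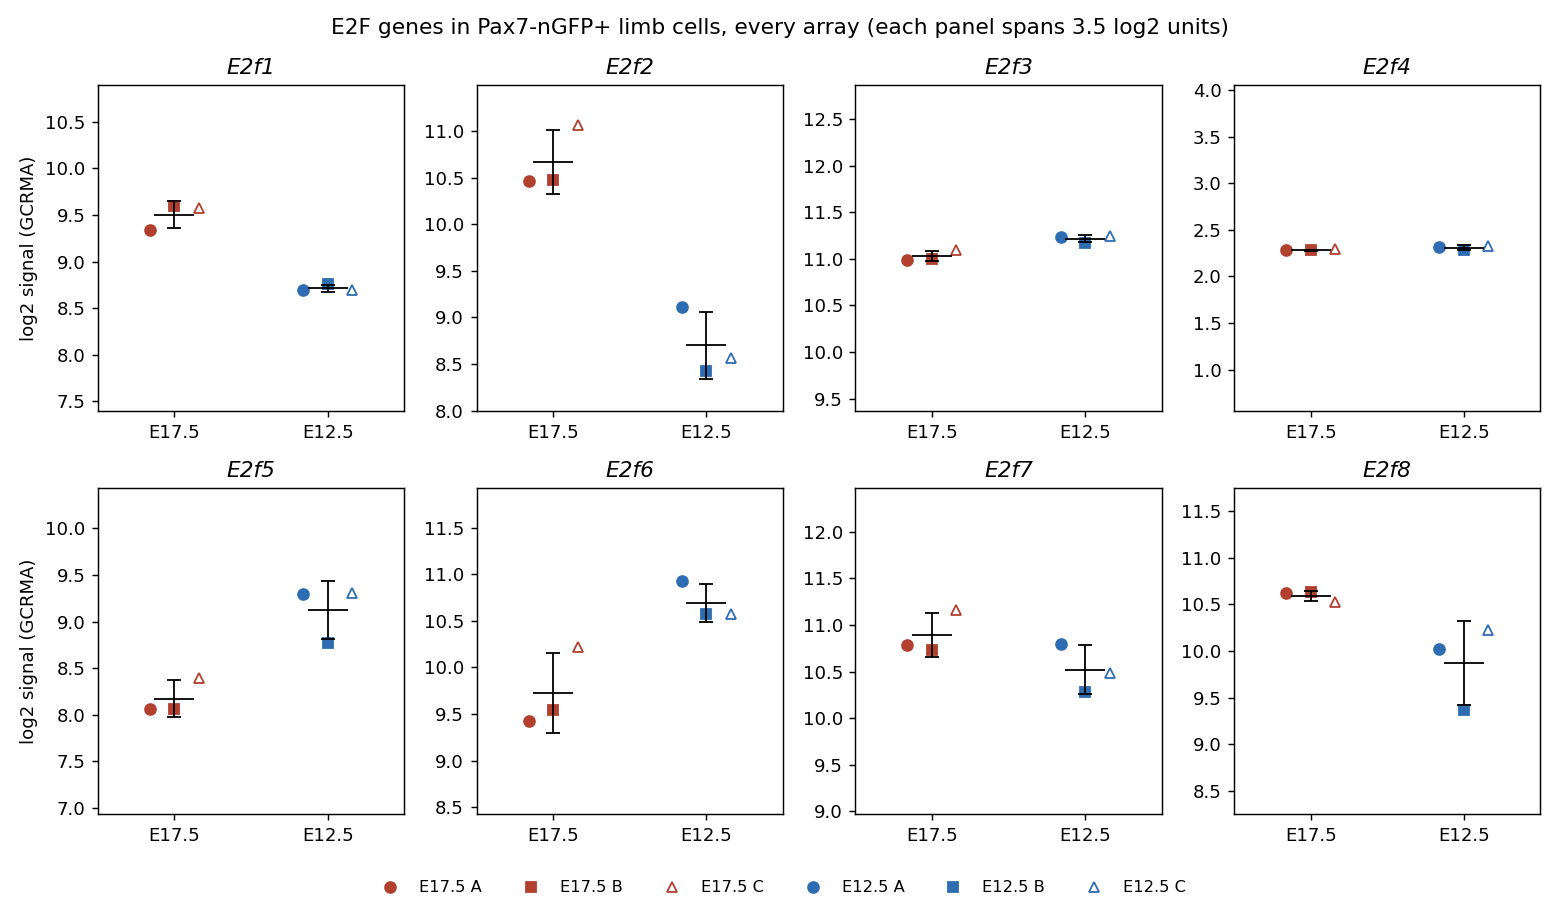
Log2 signal (vertical axis, GCRMA values) of the 8 E2F genes in each of the 3 arrays of E17.5 (red) and of E12.5 (blue), with the mean and SD of each age in black; every panel spans the same range but is centred on its own gene. E2f1 and E2f2 stand higher at E17.5, E2f5 and E2f6 stand lower, and E2f4 lies near 2.3 on every array.

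E2f2 showed the largest difference in the family. Its signal was 10.46, 10.48 and 11.06 at E17.5 (replicates A, B and C) and 9.11, 8.43 and 8.57 at E12.5. Every E17.5 array lay above every E12.5 array, with a gap of 1.35 between the nearest arrays of the ages. The means were 10.67 ± 0.34 at E17.5 and 8.70 ± 0.36 at E12.5 (SD, n = 3 arrays each). E2f2 thus rose by 1.96 (SE 0.24, limma adjusted p = 0.00236), which is 3.90-fold, and by 2.06 with E17.5 A and B averaged (adjusted p = 0.00813). The call held without any 1 of the 6 arrays. A second probe set of E2f2 read 9.10, 9.02 and 8.20 at E17.5 and 6.09, 7.33 and 7.15 at E12.5. It gave nearly the same difference of 1.92 (SE 0.40, adjusted p = 0.0359 over all probe sets), although E17.5 C was the highest array in the first probe set and the lowest E17.5 array in the second.

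E2f1, the founding member and the one also linked to apoptosis, differed less but with little scatter. It read 9.34, 9.60 and 9.57 at E17.5, and 8.69, 8.76 and 8.69 at E12.5. The E12.5 arrays lay within 0.07 of each other, and the lowest E17.5 array was 0.58 above them. E2f1 rose by 0.79 (SE 0.12, limma adjusted p = 0.00587; averaged fit 0.81, adjusted p = 0.0248), or 1.73-fold. That call held without any 1 array, with adjusted p between 0.0126 and 0.0417. The second of its 3 probe sets did not show this difference. It read 7.47, 7.47 and 7.69 at E17.5 and 7.48, 7.12 and 7.48 at E12.5, a difference of 0.18 (95% interval -0.24 to 0.61, adjusted p = 0.75 over all probe sets). The third had a mean of 2.46, under 4, a range in which GCRMA leaves little specific signal. With the mean of the 3 probe sets E2f1 was not called (0.34, adjusted p = 0.114).

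E2f3, the third activator, had the brightest main probe set of the family and the narrowest interval among the members with a mean above 4. The signal was 10.99, 11.00 and 11.09 at E17.5 and 11.23, 11.17 and 11.24 at E12.5. All E17.5 arrays lay just below all E12.5 arrays, by at least 0.08. The difference of -0.19 (SE 0.08, adjusted p = 0.211) was not called, and its 95% interval of -0.39 to 0.01 leaves no room for a change of 2-fold in the signal of this probe set. E2f3 gives rise to a long and a short isoform from separate promoters, and what each contributes to this signal was not measured here. The other probe set of E2f3 had a mean of 3.54.

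E2f5 was the repressor with the clearest difference. Its main probe set read 8.06, 8.06 and 8.40 at E17.5, and 9.30, 8.77 and 9.31 at E12.5. Ages did not overlap, with E17.5 C and E12.5 B nearest to each other, 0.37 apart. E2f5 fell by 0.95 on the log2 scale (SE 0.20, limma adjusted p = 0.019), to 0.516 of the E12.5 signal. Averaging E17.5 A and B ended the call (-0.90, adjusted p = 0.0755), as did leaving out E17.5 A (0.0754), E17.5 B (0.0791) or E12.5 C (0.071). A second probe set moved with it, at 6.34, 6.38 and 6.61 at E17.5 against 7.59, 7.24 and 7.70 at E12.5 (difference -1.07, SE 0.19, adjusted p = 0.0213 over all probe sets). The third probe set went slightly the other way and was not called (6.05, 6.47 and 6.11 at E17.5, 6.08, 6.02 and 5.59 at E12.5, difference 0.31, adjusted p = 0.61 over all probe sets).

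E2f6, the partner of Polycomb proteins, was lower by about the same amount with more scatter. It read 9.42, 9.54 and 10.22 at E17.5 and 10.93, 10.57 and 10.57 at E12.5. E17.5 C stood 0.35 below the nearest E12.5 array, and A and B about 1 below. E2f6 fell by 0.96 (SE 0.23, limma adjusted p = 0.0323), and this call was not stable. Averaging E17.5 A and B ended it (-0.84, adjusted p = 0.104). Without E17.5 A, E17.5 B, E12.5 A, E12.5 B or E12.5 C the adjusted p was 0.1, 0.113, 0.0771, 0.0699 and 0.0724, and only without E17.5 C was it lower (0.00545). The second probe set of E2f6 read 6.24, 6.34 and 5.70 at E17.5 and 5.94, 5.67 and 5.97 at E12.5, a difference of 0.23 with an interval of -0.35 to 0.82.

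E2f4, the main repressor of resting cells in many tissues, could not be assessed. Its 1 probe set read 2.28, 2.28 and 2.29 at E17.5 and 2.32, 2.28 and 2.33 at E12.5. These values lie within the background range on every array. The difference of -0.03 (adjusted p = 0.508) therefore says nothing about the transcript.

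The atypical genes E2f7 and E2f8 were both bright and were not called. E2f8 read 10.62, 10.63 and 10.53 at E17.5 and 10.02, 9.37 and 10.23 at E12.5. The E17.5 arrays lay within 0.1 of each other and at least 0.30 above the E12.5 arrays, among which B was low. Its difference was 0.72 (SE 0.22, 95% interval 0.20 to 1.24, limma adjusted p = 0.0722; averaged fit adjusted p = 0.186). E2f8 was called without E12.5 C (0.90, adjusted p = 0.0476) and in fits limited to genes with a mean of at least 4 or 6 (adjusted p = 0.0396 and 0.0393). E2f7 read 10.79, 10.73 and 11.16 at E17.5 and 10.80, 10.28 and 10.48 at E12.5. Here the ages overlapped, since E12.5 A was above E17.5 A and B, and the difference of 0.37 had an interval of -0.05 to 0.79 (adjusted p = 0.233). E12.5 B was the lowest array of both genes.

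**Figure D2:**
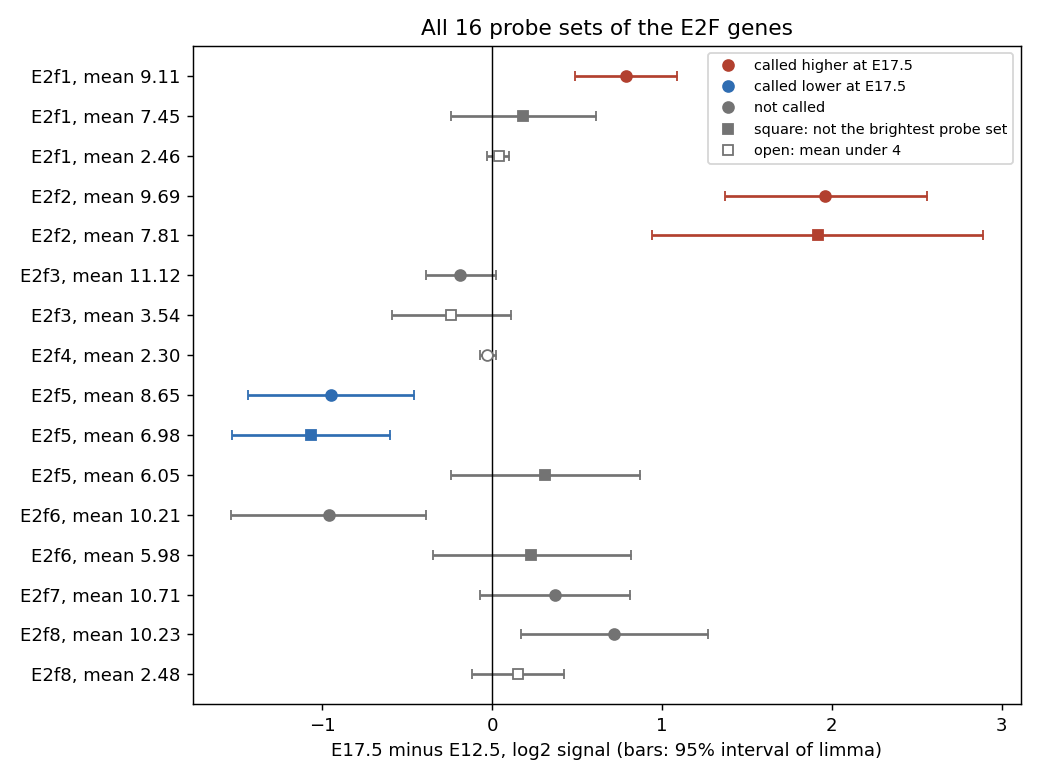
Difference E17.5 minus E12.5 (horizontal axis, log2 signal, with the 95% interval of limma) of all 16 probe sets of the E2F genes, brightest first within each gene, coloured by their call in a fit over all probe sets. Both probe sets of E2f2 and 2 of 3 of E2f5 are called, while the second probe sets of E2f1 and E2f6 lie near 0.

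Fitted over all probe sets, 3 of the 16 E2F probe sets were called higher and 2 lower, where 8.89% of all probe sets were called in either direction. The main probe set of E2f6 was not among them (adjusted p = 0.0608). Of the 16, 4 had a mean under 4 and carry no usable level.

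The genes whose profile over the 6 arrays was nearest to each member, by root mean square distance after centring each gene on its own mean, were taken from the other bright genes. Nearest to E2f2 were the clock gene Per1 (8.15, 8.18 and 8.73 at E17.5, 6.66, 6.24 and 6.36 at E12.5, distance 0.0853), Ube2j1 (0.118) and Acyp2 (0.122). Nearest to E2f1 were Acss1 (0.0499), the spectrin gene Sptbn1 (0.0579) and Pias2 (0.0719). The growth factor genes Pdgfc (0.0658) and Pgf (0.0837) and the aminotransferase gene Bcat1 (0.0941) were nearest to E2f5, and Rpp40 (0.0736), Hpcal1 (0.0739) and Trim32 (0.0822) to E2f6. E2f3 lay nearest to AW549877 (0.0222), Gcdh (0.0281) and Wdr5 (0.0293), E2f7 to Rabep1 (0.0329), Dcaf5 (0.0364) and Mccc2 (0.0373), and E2f8 to Casp9 (0.103), Arid4a (0.124) and Antxr2 (0.128). These distances describe 6 arrays of 2 ages and order genes mainly by the size of their difference.

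Of 5 genes for DP partners and pocket proteins 3 were called higher (Rb1, Rbl2 and Tfdp2) and none lower, in the averaged fit too, where 8.21% of all genes were higher (5.62% in the averaged fit). Their median difference was 1.21, against 0 over all genes. Rb1, the retinoblastoma gene that restrains the activators, read 11.03, 11.04 and 11.66 at E17.5 and 8.98, 9.37 and 9.31 at E12.5. Every E17.5 array was far above every E12.5 array, and Rb1 rose by 2.02 (SE 0.21, limma adjusted p = 0.00109; averaged fit 0.00404). Its other probe set had a mean of 2.79.

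Rbl2, which binds E2F4 and E2F5 in resting cells, stood at 8.09, 8.08 and 8.06 at E17.5 and at 6.25, 6.76 and 6.62 at E12.5, and rose by 1.53 (SE 0.19, limma adjusted p = 0.00278; averaged fit 0.02). Its paralogue Rbl1, which is linked more to cycling cells, read 10.94, 10.89 and 10.82 at E17.5 and 10.66, 10.18 and 10.42 at E12.5. The ages of Rbl1 did not overlap, but the difference of 0.46 (SE 0.14, adjusted p = 0.0671) was called, with 1 array left out, only without E12.5 A (adjusted p = 0.0192).

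The DP genes encode the subunit with which E2F1 to E2F6 bind DNA. Tfdp2 read 10.75, 10.53 and 10.51 at E17.5, above the 9.20, 9.52 and 9.43 at E12.5. It rose by 1.21 (SE 0.13, limma adjusted p = 0.00134; averaged fit 0.00784), and 3 of its 4 probe sets were called higher. Tfdp1 read 11.40, 11.40 and 11.15 at E17.5 and 11.14, 11.64 and 11.80 at E12.5, with overlapping ages and a difference of -0.21 (adjusted p = 0.592). The calls of Rb1, Rbl2 and Tfdp2 held without any 1 array.

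**Figure D3:**
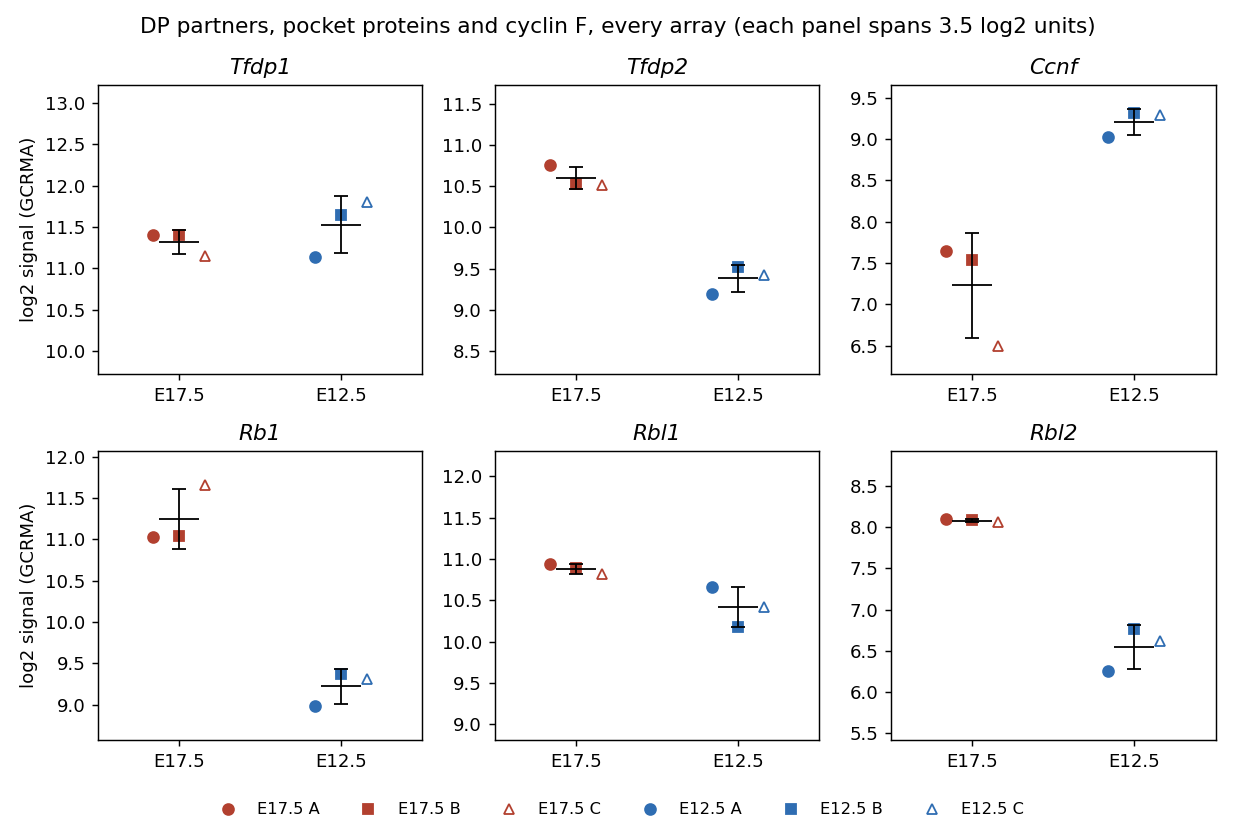
Log2 signal (vertical axis, GCRMA values) of the DP genes Tfdp1 and Tfdp2, the pocket protein genes Rb1, Rbl1 and Rbl2, and the cyclin F gene Ccnf in each of the 3 arrays of E17.5 (red) and of E12.5 (blue), with mean and SD in black. Rb1, Rbl2 and Tfdp2 are higher at E17.5 on all arrays, Ccnf is lower and Tfdp1 overlaps.

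Among 10 genes of cyclin E, cyclin A and E2F turnover 1 was called higher and 1 lower, in the averaged fit too. These counts are near the shares over all genes, 8.21% higher and 8.73% lower (5.62% and 4.54% in the averaged fit). Ccnf, whose product cyclin F directs the breakdown of E2F1, E2F7 and E2F8, read 7.65, 7.54 and 6.50 at E17.5 and 9.02, 9.31 and 9.29 at E12.5. All E17.5 arrays were low, C the lowest, and Ccnf fell by 1.98 (SE 0.32, limma adjusted p = 0.00701; averaged fit 0.0143). Both probe sets of Ccnf were called lower. Ccne1, the cyclin E gene and an E2F target, rose by 0.64 (13.43, 13.56 and 13.77 at E17.5, 13.10, 12.86 and 12.87 at E12.5, adjusted p = 0.0137; averaged fit 0.0358), a call lost without E17.5 B (0.0536) or E12.5 C (0.0539).

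The MuvB core joins E2F4 or E2F5 and a pocket protein in the DREAM repressor and joins B-Myb and FoxM1 in mitotic gene activation. Of 7 such genes 1 was called lower, where 8.73% of all genes were. This was Lin37 (-0.84, adjusted p = 0.0461, averaged fit 0.159), called with 1 array left out only without E12.5 A (0.0193). Without any other array its adjusted p was 0.0655 to 0.165. Mybl2 differed by -0.42 (adjusted p = 0.321) and Foxm1 by -0.49 (adjusted p = 0.202), and neither was called. Among 11 measured partners of E2F6 in its Polycomb complex 3 were called lower and none higher, where 8.73% of all genes were lower, and 1 was lower in the averaged fit, where 4.54% of all genes were. Pcgf6, the ring finger subunit that defines the complex, read 8.51, 8.33 and 8.44 at E17.5 and 9.24, 9.32 and 9.58 at E12.5, and fell by 0.95 (SE 0.14, adjusted p = 0.00475; averaged fit 0.0235), without any 1 array too. The deacetylase genes Hdac1 (-0.63, adjusted p = 0.0153; averaged fit 0.0546) and Hdac2 (-0.38, adjusted p = 0.0166; averaged fit 0.0788) were also called lower. Hdac1 lost the call without E17.5 A (0.0693), and Hdac2 without E17.5 A (0.0781), E17.5 B (0.0834) or E12.5 C (0.0699).

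Of 55 measured targets in replication initiation, DNA synthesis, and chromatin and repair, 2 were called higher, 6 lower and 47 not at all. The share called higher was 3.64%, against 8.21% of all genes, and the share called lower 10.9%, against 8.73%. All 55 had a mean of at least 4, while 42.8% of all genes had a mean under 4. Of the 8758 genes with a mean of at least 6, a larger share of 26.4% was called in either direction. The shares over all genes are thus not those of comparably bright genes, here or for the other bright lists. The median difference of the 55 targets was -0.15, against 0 over all genes, and 45 of the 55 differed by less than 0.5. In the averaged fit 1 target was higher and 1 lower.

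Mcm10, a replication initiation factor, read 8.97, 8.83 and 9.07 at E17.5 and 9.82, 9.60 and 9.83 at E12.5. It fell by 0.79 (SE 0.13, limma adjusted p = 0.00657; averaged fit 0.0352), and the call held without any 1 array. Orc1, of the origin recognition complex, fell by 1.22 (adjusted p = 0.0109; averaged fit 0.0518; 0.0565 without E17.5 A and 0.0509 without E17.5 B), and the phosphatase gene Cdc25a by 0.74 (adjusted p = 0.0457; averaged fit 0.0864), a call kept, with 1 array left out, only without E12.5 A. In this group of 21 initiation genes 3 were lower and none higher (8.73% and 8.21% of all genes), 1 lower in the averaged fit, and 17 had a difference below 0, as did 8090 of all 18182 genes. Their summed linear signal was 64184 to 67741 at E17.5 and 71842 to 77454 at E12.5. These ranges did not overlap, and of all genes taken singly 31.4% had ages that did not overlap. The sum is weighted to the brightest genes of the group, Mcm5 (mean 14.03) and Mcm7 (13.6). Neither was called (limma adjusted p = 0.1 and 0.151).

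Asf1b, a histone chaperone, stood out among the targets at 9.64, 9.77 and 9.76 at E17.5 against 8.39, 8.78 and 8.65 at E12.5. It rose by 1.12 (SE 0.14, limma adjusted p = 0.00247; averaged fit 0.0148), without any 1 array too. The other calls among the targets were small and less stable, and the averaged fit held none of them (adjusted p 0.0956 for Tk1, 0.124 for Ezh2, 0.11 for Pole and 0.116 for Rfc4). Tk1, thymidine kinase, was at 0.47 (adjusted p = 0.0346) and Ezh2, a Polycomb methyltransferase, at -0.37 (adjusted p = 0.0403), and both calls were lost when any 1 array was left out. Pole, of DNA polymerase epsilon (-0.59, adjusted p = 0.0319), and Rfc4, of the clamp loader (-0.52, adjusted p = 0.0367), were called with 1 array left out only without E12.5 A. An element from the search above stood in the start window of 9 of 16 initiation genes, 4 of 18 synthesis genes and 7 of 14 chromatin and repair genes that had one, counting listed genes whether or not the arrays measured them.

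Smaller lists cover other known roles of the family. Of 9 measured apoptosis targets of E2F1, 1 was called lower, where 8.73% of all genes were. This was the apoptosome gene Apaf1 (-0.50, adjusted p = 0.0168, averaged fit 0.0802). Apaf1 lost the call without E17.5 A (0.0781), E17.5 B (0.0859), E12.5 B (0.0579) or E12.5 C (0.0685). All 5 measured germline genes that E2F6 is known to silence had a mean under 4 at both ages. The cohesin gene Stag3 among them read 3.34, 3.33 and 3.34 at E17.5 and 2.99, 3.99 and 3.95 at E12.5, and the carrier gene Slc25a31 3.45, 3.85 and 3.54 at E17.5 against 3.61, 3.22 and 3.25 at E12.5. None of the 5 was called with all arrays, and Stag3 was called lower without E12.5 A (adjusted p = 0.014). Ccno and Foxj1, genes of multiciliated cells in which E2F4 and E2F5 act, had means under 4 too, with differences of 0.28 (adjusted p = 0.11) and 0.05 (adjusted p = 0.684); Ccno was called higher without E17.5 C (adjusted p = 0.039).

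**Figure D4:**
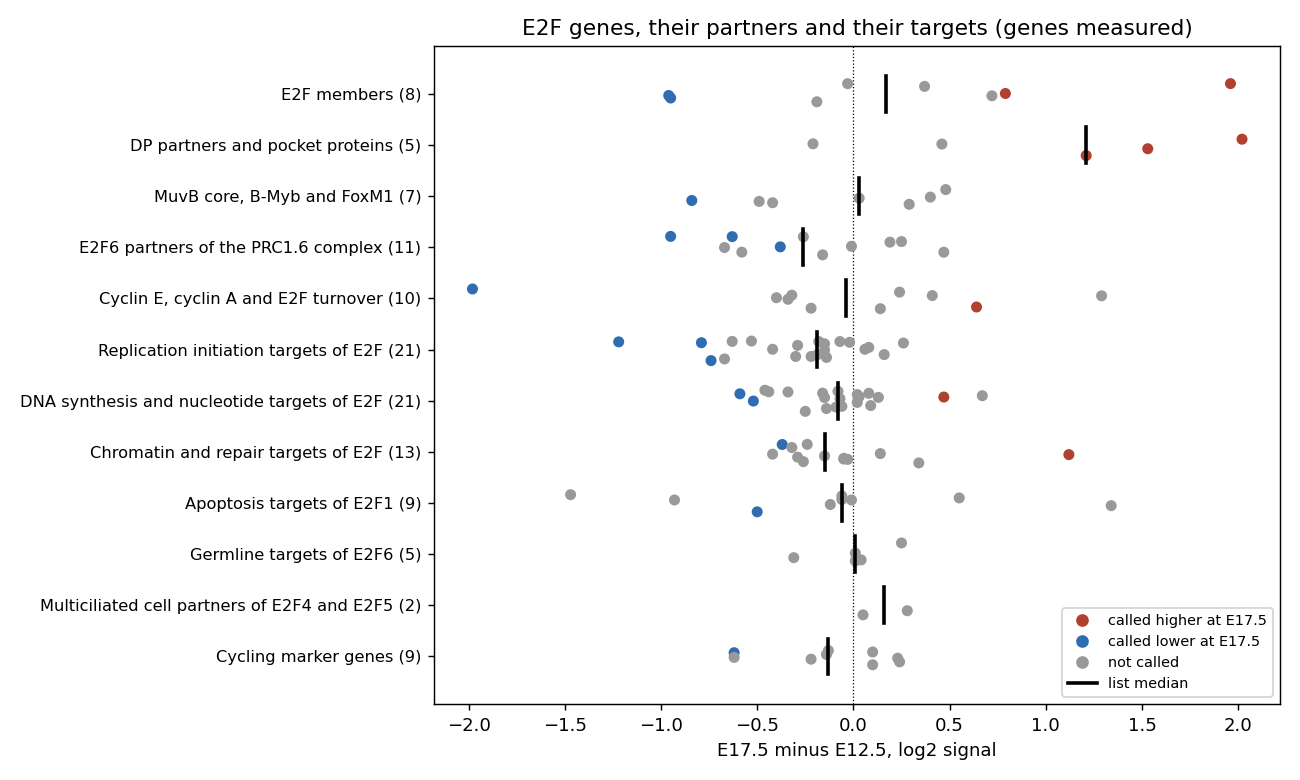
Difference E17.5 minus E12.5 (horizontal axis, log2 signal) of each measured gene of the E2F family and of the lists of partners and targets, with the number of genes in brackets and the list median as a black bar. Points of the replication and repair lists gather near 0, while 3 of 5 DP and pocket protein genes lie above 1.

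Genes that mark cycling cells differed little. Of 9 measured markers 1 was called lower, where 8.73% of all genes were. This was the mitotic kinase gene Plk1 (-0.62, adjusted p = 0.0325, averaged fit 0.0922). Its call was kept, with 1 array left out, only without E12.5 A. The median difference of the 9 markers was -0.13. The sum of their linear signals was 29980 to 31698 at E17.5 and 30374 to 32384 at E12.5. Mki67, present in all cycling cells, read 13.24, 13.24 and 12.99 at E17.5 and 13.00, 12.91 and 12.83 at E12.5 (difference 0.24, adjusted p = 0.189).

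Markers of several cell types also differed between the ages, and their part in the E2F differences was not tested. In such bulk RNA, fewer cells of a type and less RNA per cell cannot be told apart. The counts below stand beside shares over all genes of 8.21% higher and 8.73% lower (5.62% and 4.54% in the averaged fit). Of 10 progenitor markers 5 were called higher and none lower, in the averaged fit too, with a median difference of 0.92. Pax7 rose by 0.91 (adjusted p = 0.0105; averaged fit 0.0435), at 12.37 ± 0.15 at E17.5 and 11.46 ± 0.28 at E12.5 (SD, n = 3 arrays each). Itga7, an integrin gene, read 9.18, 9.16 and 8.84 at E17.5 against 2.19, 2.17 and 2.31 at E12.5, the last values in the background range. Of 12 markers of differentiating muscle 7 were higher and none lower, in the averaged fit too, and their summed signal was 33464 to 38200 at E17.5 and 7511 to 17486 at E12.5. Erythroid markers summed to 53 to 79 at E17.5 and to 8383 to 31435 at E12.5, nearly all of it from the embryonic globin gene Hbb-y (4.46, 3.23 and 3.32 at E17.5, 14.34, 14.89 and 13.02 at E12.5). The embryonic globin genes Hbb-y, Hbb-bh1 and Hba-x were the 3 of 6 called lower, and in the averaged fit only Hbb-y was (adjusted p = 0.00061). Klf1 and Hba-a1, each read by 1 probe set, were near background at both ages, so these readings carry no usable level. Alas2 differed by 0.69 (adjusted p = 0.182). Fibroblast markers (2 of 9 higher and 2 lower, 1 and 1 in the averaged fit) summed to 25907 to 33108 at E17.5 and 9871 to 27728 at E12.5. Most of this sum came from Col3a1 and Col1a2, which were not called (limma adjusted p = 0.109 and 0.0764). Called higher were Dpt (9.04) and Col1a1 (2.76), and called lower Pdgfra (-3.68) and Twist2 (-3.21). Cartilage markers (1 of 6 lower, also in the averaged fit) summed to 299 to 996 at E17.5 and to 3500 to 6176 at E12.5. E12.5 B was lowest of all 6 arrays in E2f2, E2f7 and E2f8 and lowest of the E12.5 arrays in E2f5. It was the highest E12.5 array in the sums of fibroblast, cartilage, erythroid, keratinocyte, endothelial, macrophage and differentiating muscle markers. In the sums of progenitor, tendon (816) and neural and Schwann cell markers (5083) it was the lowest E12.5 array. Its low tendon sum came from Egr1 (11.51, 8.62 and 12.53 at E12.5). Scx (4.94), Mkx (8.48) and Tnmd (5.12) were highest in B among the E12.5 arrays. Nearly all of the neural and Schwann sum came from Erbb3 (12.93, 12.30 and 12.80 at E12.5). Sox10 (3.84) and Tubb3 (4.04) were highest in B among the E12.5 arrays, and Elavl3 and Foxd3 lay in the background range. Of the other lists, tendon markers had 1 of 4 higher and 1 lower (the averaged fit kept the lower one), endothelial 1 of 6 higher (Tek, with Pecam1 between 2.21 and 2.44 throughout) and macrophage 2 of 6 higher (Cd68 and Lyz2, only Cd68 in the averaged fit, with Ptprc between 2.40 and 2.74). Neural and Schwann cell markers had 1 of 5 lower (Erbb3), and 4 of the 5 had a mean under 4 (Sox10 between 2.30 and 3.84). Keratinocyte markers had 2 of 5 lower (Epcam and Trp63). The calls of Erbb3, Epcam, Trp63 and Tek held in the averaged fit.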

How the data were processed

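RNA of sorted cells was amplified from 100 ng in a two-cycle protocol from the 3' end, per the labels' protocols, and hybridised to single-colour Affymetrix arrays. What the authors deposited is 1 log2 signal for each probe set and array. The submitters' processing notes name GCRMA, and its version is not given in the sources used here. This method squeezes probe sets that lack specific signal into a narrow low range, here mostly under 4. Array medians were 3.38 to 3.47. Depth does not apply to arrays, and their number limits the precision.

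Of 44994 probe sets 34909 had 1 gene symbol in the platform annotation (updated by Entrez ID to RefSeq), 931 with several were not used, and 9154 were unnamed. Of the 18182 genes, 42.8% had a mean under 4. The test of each difference was limma's (version 3.58.1, R 4.3.3; two-sided, with lmFit and a trended eBayes, no filter, Benjamini-Hochberg over all genes). The fit was tested on simulated arrays with independent noise. That simulation did not copy the likeness of E17.5 A and B, so it says nothing about its effect on the calls. No set test was made of any list, and partners and targets are given by counts and medians.

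The members, the lists, the fit that averages E17.5 A with B, and the alternatives were chosen with earlier results of these data known. Partner and target genes were named by a rule: up to 3 called members per list and direction by size (the 2 brightest where none was called), 9 genes whatever their result, and the 3 nearest profiles of each member with a mean of at least 6. Genes named only as cell type markers, and Mcm5 and Mcm7, are outside this rule. The arrays were not paired by replicate letter, and a replicate block is among the alternatives. Same-lettered arrays deviated from their age means with correlations of -0.38 (A), 0.255 (B) and -0.07 (C). These values cannot exclude a batch shared by letter. Deviations from a mean of 3 arrays depend on each other, and E17.5 A and B were nearly alike. Figures were drawn with matplotlib 3.10.9.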

Additional observations from a re-analysis of the deposited data

How the results depend on the processing

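Over 19 alternatives (17 for E2f4, which filters on the mean leave out) no member changed direction, though with a floor at 4 the difference of E2f4 was 0, and E2f2 was called in all of them (difference 1.77 to 2.17, adjusted p 1.58e-05 to 0.0121). The count of 2 members higher was 4 with array weights and 1 with the mean of all probe sets, and 2 to 3 without 1 array. The count of 2 members lower was 4 with array weights (these weigh E17.5 A, E12.5 C and E17.5 B most, at 4.97, 4.8 and 3.24), 1 with the mean of all probe sets, 1 with a floor at 4, 1 with the replicate block, 0 in the averaged fit, 0 at an adjusted p under 0.01 and 0 to 2 without 1 array. By limma's unadjusted p, which does not allow for the number of genes, E2f5 (0.00215) and E2f6 (0.00457) were under 0.05. So was E2f8 (0.0143), which was not called and differed in the other direction. Over all genes the 1493 higher were 3205 with array weights and 841 at 0.01, and 969 to 1553 without 1 array. The 1587 lower were 5218 with array weights, 1014 with the replicate block, 825 averaged and 701 at 0.01, and 770 to 1776 without 1 array. E2f6 lost its call under 11 of 19 alternatives (adjusted p 0.0718 with the replicate block), E2f5 under 5 and E2f1 under 1. E2f3 was called without an intensity trend (adjusted p = 0.0495) and with array weights (0.00226), E2f7 with array weights (0.0171) and E2f8 under 4 alternatives; the causes were not tested. E2f4 was called with array weights (-0.05, adjusted p = 0.00361), within the background range. Signal over background limits E2f4 and the germline and multiciliated cell genes, which lie in the background range and had no call with all arrays weighted equally.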
